A study of Mus musculus with 18 samples.

Results

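The genes described here are 36 type I interferon response genes of the mouse: interferon beta, interferon-induced chemokines, and genes that cells switch on when they receive interferon. They were chosen by symbol from a fixed list, after the gene identifiers of each count table were matched to mouse symbols. All 36 of the 36 listed genes were found among the 55401 genes of each table, and all had at least 3 counts in at least 1 library. No measured value chose them.

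The study compared macrophages that differ in Smim30, a gene for a small membrane protein, after treatment with lipopolysaccharide (LPS), the bacterial outer-membrane component. RNA was sequenced from 18 libraries in 6 groups of 3, and every group received 5 ng/ml LPS for 6 hours. The Mut group is peritoneal macrophages of SMIM30-Mut mice on the C57BL/6J strain, set against the WT group, the same cells of wild-type mice. The Mut-SMIM30-OE group is Smim30-mutant peritoneal macrophages given an adenovirus that overexpresses Smim30, and its counterpart Mut-Control received a control adenovirus. Both viruses were added 6 hours after seeding and left for 24 hours before LPS, and the cells of both groups carry the mutation, so that neither is a wild-type state. The siSMIM30 group is IC-21 cells, a line derived from mouse peritoneal macrophages, transfected with Smim30 siRNA for 24 hours before LPS, and siControl is its control. The labels name neither the mutant allele nor the ages of the mice. IC-21 is a single line, and no label says whether the 3 libraries of a group came from separate mice or cultures, so p-values measure the spread between these libraries, which may be technical. Libraries without LPS were not analysed here, so induction by LPS itself was not measured.

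Type I interferons are secreted by macrophages when Toll-like receptor 4 senses LPS and signals through the adaptor TRIF and the transcription factor IRF3. Interferon beta then binds the receptor made of IFNAR1 and IFNAR2 on the same and neighbouring cells, and the kinases JAK1 and TYK2 phosphorylate STAT2. With IRF9 it forms part of a complex, ISGF3, that binds the interferon-stimulated response element in the promoters of antiviral genes. NF-kB, the other arm of the LPS response, drives cytokines such as TNF and IL-6 without this loop.

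The core of the response element, GAAANNGAAA (N is any base), was searched on both strands in the 250 bases before the start of each gene in the RefSeq promoter table (GRCm38.p6). It was present in 13 of 27 genes of the list with an entry (48.1%), against 936 of 27025 genes in the whole table (3.46%). Matches may overlap. A match is a description of letters and not of binding. Of the 9 genes called higher in Mut below, 7 had an entry and 5 held a match. Of the genes not called, 20 had an entry and 8 held a match. Whether a match goes with a call was not tested. The 5 called genes whose window holds a match are shown, with Ifit1 as a classical interferon gene that did not pass the test. Capitals mark the motif (TTTCNNTTTC is the same motif on the other strand), each sequence reads 5′ to 3′ toward the start, and coordinates are those of the 250 bases.
The Isg15 window, with 3 overlapping matches beginning 78, 72 and 66 bases before the start, is chr4:156200819-156201068 on the minus strand.
Isg15: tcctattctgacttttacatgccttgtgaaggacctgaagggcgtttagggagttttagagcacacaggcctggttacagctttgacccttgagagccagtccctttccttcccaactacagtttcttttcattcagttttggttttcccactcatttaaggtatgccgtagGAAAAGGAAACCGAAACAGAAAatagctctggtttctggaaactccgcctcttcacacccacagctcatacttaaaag
The Cxcl10 window, with its match 213 bases before the start, is chr5:92348890-92349139 on the minus strand.
Cxcl10: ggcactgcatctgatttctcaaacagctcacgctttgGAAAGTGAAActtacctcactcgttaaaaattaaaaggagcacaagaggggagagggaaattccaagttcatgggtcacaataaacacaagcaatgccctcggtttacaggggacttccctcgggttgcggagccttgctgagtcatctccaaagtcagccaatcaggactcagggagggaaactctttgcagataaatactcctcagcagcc
The Bst2 window, with overlapping matches 130 and 124 bases before the start, is chr8:71537473-71537722 on the minus strand.
Bst2: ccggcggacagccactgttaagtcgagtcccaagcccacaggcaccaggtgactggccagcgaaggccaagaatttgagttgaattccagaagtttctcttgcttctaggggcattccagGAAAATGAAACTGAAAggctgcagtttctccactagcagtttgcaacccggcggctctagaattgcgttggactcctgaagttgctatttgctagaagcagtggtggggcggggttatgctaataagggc
The Stat2 window, with its match 222 bases before the start, is chr10:128270248-128270497 on the plus strand.
Stat2: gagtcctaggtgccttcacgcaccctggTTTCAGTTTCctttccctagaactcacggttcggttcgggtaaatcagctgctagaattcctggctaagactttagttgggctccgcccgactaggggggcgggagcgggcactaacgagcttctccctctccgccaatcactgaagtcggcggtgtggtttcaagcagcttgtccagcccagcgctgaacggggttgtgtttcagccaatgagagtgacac
The Slfn5 window, with its match 155 bases before the start, is chr11:82951852-82952101 on the plus strand, and lies inside the longer gene span of the counting annotation, which begins at 82951349.
Slfn5: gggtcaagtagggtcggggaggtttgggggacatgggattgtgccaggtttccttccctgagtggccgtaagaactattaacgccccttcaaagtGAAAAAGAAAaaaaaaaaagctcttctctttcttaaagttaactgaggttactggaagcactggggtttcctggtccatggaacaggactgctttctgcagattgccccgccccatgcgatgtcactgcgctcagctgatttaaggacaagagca
The Ifit1 window, with matches 104 and 85 bases before the start, is chr19:34640639-34640888 on the plus strand.
Ifit1: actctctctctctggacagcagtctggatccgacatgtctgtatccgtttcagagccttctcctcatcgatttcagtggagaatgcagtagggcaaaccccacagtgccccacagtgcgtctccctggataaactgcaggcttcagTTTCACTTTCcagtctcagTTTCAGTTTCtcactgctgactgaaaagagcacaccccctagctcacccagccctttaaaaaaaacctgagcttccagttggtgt
In the Isg15, Bst2 and Ifit1 windows, the matches lie within 130 bases of the start, whereas in the Slfn5, Cxcl10 and Stat2 windows they lie farther away. Ifi44 and Isg20, also called, held no match in this window.

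Libraries held 6855245 to 13456857 read pairs assigned to genes, and 3 counts, taken as the detection floor, correspond to 0.223 to 0.438 CPM, by counting error alone. CPM is the count of a gene scaled to 1000000 counts of its library's own total. The gene tables do not carry the name Smim30, and the gene listed as 2610001J05Rik was taken to be Smim30 from general knowledge. It was lowered by the siRNA (10.7 ± 1.69 CPM in siSMIM30 and 21.4 ± 1.26 CPM in siControl, SD, n = 3 each, adjusted p = 6.17e-08). The same gene was 1.21-fold higher with the overexpressing virus (53.1 ± 1.86 CPM in Mut-SMIM30-OE and 43.9 ± 1.86 CPM in Mut-Control, adjusted p = 0.0052). It did not differ detectably between Mut and WT (48.7 ± 5.65 CPM and 48.1 ± 3.45 CPM, adjusted p = 0.966), so RNA level does not check the mutant label. The macrophage markers Adgre1, Csf1r, Cd68, Lyz2, Mertk, Fcgr1 and Cd14 were detected in all groups. Of the 4 large peritoneal macrophage markers, Gata6, Timd4 and Vsig4 had 0 counts in both IC-21 groups, whereas Icam2 was detected in both. Bulk RNA cannot tell fewer cells of a type from less RNA per cell.

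**Figure D1:**
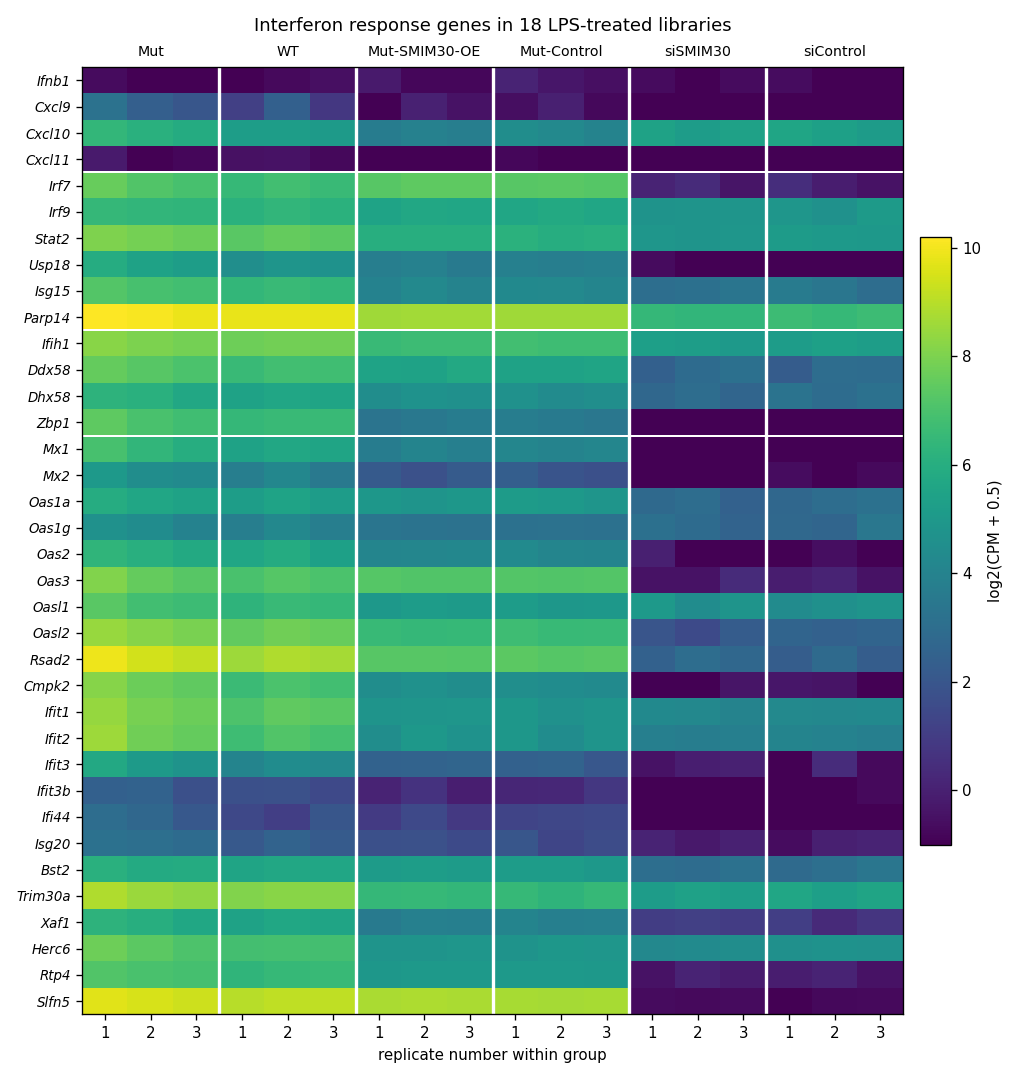
Level of each of the 36 interferon response genes (rows, ordered by role) in each of the 18 libraries (columns, 3 per group), as log2(CPM + 0.5). Most rows are brightest in the Mut libraries, intermediate in the virus groups and darkest in the IC-21 groups.

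In Mut macrophages, 34 of the 36 genes could be tested against WT, and the fold change of each of the 34 was above 1. The median log2 difference was 0.55, against -0.01 over all 12500 genes tested. Of the 34, 9 were called higher at an adjusted p under 0.05 in edgeR's quasi-likelihood test and 0 lower, where 3.68% of all genes were called higher and 2.62% lower. In 27 of the 34, all 3 Mut libraries lay above all 3 WT libraries, as did 12.8% of all genes. The number called moved with the libraries and the test. It was 3 without WT replicate 1, 5 without WT replicate 3, 4 without Mut replicate 2, 21 without Mut replicate 1 and 21 without Mut replicate 3. It was 20 with DESeq2, 7 with limma-voom, and 28 were higher at an unadjusted p under 0.05. By both other tools, and at an unadjusted p under 0.05, 0 were lower. The direction of the 34 was positive under each of these settings. Cxcl10, Isg20 and Rtp4 were called in 15 of 15 alternatives, Bst2 in 13, Isg15 in 12, Stat2, Ifi44 and Slfn5 in 11 and Parp14 in 9. The lost calls of Isg15, Stat2 and Slfn5 fell without WT replicate 1, WT replicate 3 or Mut replicate 2, and also with RLE scaling (DESeq2's size factors) for Stat2 and with limma-voom for Slfn5. Those of Bst2 fell without WT replicate 1 or Mut replicate 1, and those of Ifi44 also without WT replicate 2 or Mut replicate 2.

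Among the ligand and chemokines, interferon beta RNA was at the floor and Cxcl10 was higher in Mut. Ifnb1, the gene of interferon beta, had 1, 0 and 0 counts in the Mut libraries and 0, 1 and 2 counts in the WT libraries, too few to test. Cxcl10, a chemokine that attracts activated T cells through CXCR3, lies on chromosome 5 at 92346638 to 92348889 on the minus strand (GRCm38). It had 84.9, 68.4 and 59.1 CPM in the Mut libraries, against 37.4, 37.6 and 34.1 CPM in the WT libraries. The lowest Mut library stood well above the highest WT library, a 1.92-fold difference (log2 0.94, SE 0.13, adjusted p = 0.00261). Cxcl9, its neighbour on chromosome 5 and a ligand of the same receptor, had 8.81, 4.77 and 3.51 CPM in Mut and 1.70, 4.92 and 1.25 CPM in WT. These overlapped because of WT replicate 2, and Cxcl9 did not pass (log2 1.12, SE 0.66, adjusted p = 0.491). Cxcl11 reached at most 0.377 CPM and was not tested.

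Among the signal regulators, the transcription factor Stat2, the ubiquitin-like modifier Isg15 and Parp14 were called by edgeR, while Irf7, Irf9 and Usp18 were not. DESeq2 also called Usp18. Stat2, a subunit of ISGF3, had 264, 229.6 and 207 CPM in Mut, against 159.5, 185 and 166 CPM in WT. The groups did not overlap, and the gene was only just past the threshold (log2 0.44, SE 0.10, adjusted p = 0.0498). Isg15, which is conjugated to other proteins in interferon-treated cells, had 147, 123 and 112 CPM in Mut, against 84.0, 96.9 and 85.6 CPM in WT. It was 1.41-fold higher without overlap (SE of log2 0.11, adjusted p = 0.0293). Parp14, a mono-ADP-ribosyltransferase, had 1175, 1075 and 947 CPM in Mut, against 910.1, 912 and 889.8 CPM in WT. Its difference was the smallest of those called, 1.17-fold (adjusted p = 0.0449), and its call was lost with limma-voom, without any single WT replicate and without Mut replicate 1 or 2.

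Irf7, the transcription factor that amplifies interferon production, had 192, 143 and 123 CPM in Mut, against 90.2, 112 and 94.9 CPM in WT. All Mut libraries were above all WT libraries, but the Mut libraries were spread widely, and Irf7 did not pass (log2 0.60, SE 0.22, adjusted p = 0.266). It was called in the fit of all 18 libraries and without Mut replicate 1 (lowest adjusted p = 0.0145). Usp18, a protease that removes ISG15 and dampens the interferon receptor, had a log2 difference of 0.86 (SE 0.24, adjusted p = 0.149). Irf9, the DNA-binding subunit of ISGF3, had the smallest difference of the list, a log2 value of 0.15 (SE 0.07, adjusted p = 0.21).

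The sensors of foreign nucleic acid were above WT in all 4 cases without overlap of the groups, and 0 of 4 passed edgeR's test (3 of 4 at an unadjusted p under 0.05). DESeq2 called Ifih1, Ddx58 and Dhx58, as did the fit of all 18 libraries and the fit without a low-count filter, and limma-voom called 0. Ifih1 encodes the RNA sensor MDA5, and its log2 difference was 0.24 (SE 0.07, adjusted p = 0.0695). Ddx58, the gene of RIG-I, had a log2 difference of 0.56 and Dhx58, the gene of LGP2, 0.49 (adjusted p = 0.18 and 0.105). Zbp1, a sensor of Z-form nucleic acid, had a log2 difference of 0.52 (adjusted p = 0.318).

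Of the 22 antiviral effectors, 5 were called higher. Rtp4, described as a negative regulator of the interferon response in mice, had 142, 128 and 118 CPM in Mut, against 80.1, 90.5 and 93.8 CPM in WT. The groups were far apart for their spread, and Rtp4 had the smallest adjusted p of the list (1.45-fold, log2 0.54, SE 0.07, adjusted p = 6.62e-05). Bst2, the gene of tetherin, which holds budding virus at the cell surface, had 68.8, 57.4 and 58.5 CPM in Mut, against 46.0, 51.6 and 49.3 CPM in WT (1.25-fold, adjusted p = 0.00867). Isg20, a 3′ exonuclease, had 8.56, 8.09 and 6.94 CPM in Mut, against 3.93, 5.39 and 4.2 CPM in WT (1.73-fold, adjusted p = 0.00934). For all of these the groups did not overlap. Slfn5, a Schlafen family member, had 821, 733 and 648 CPM in Mut, against 507, 553 and 554 CPM in WT (1.35-fold, adjusted p = 0.0231). Ifi44, an interferon-induced gene of low level here, had 7.55, 6.10 and 3.76 CPM in Mut, against 2.23, 1.64 and 3.48 CPM in WT. Its 2.23-fold difference was the largest called in the list (log2 1.16, SE 0.29, adjusted p = 0.0145), and Mut replicate 3 lay close to WT replicate 3.

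Several classical effectors had larger differences than many called genes and did not pass edgeR's test. Of those named next, DESeq2 called Ifit2, Ifit3, Rsad2, Cmpk2, Mx1, Oasl2 and Xaf1. The fit of all 18 libraries called the same genes except Mx1, and also Ifit1, Mx2, Oas1a, Oas3, Trim30a and Herc6. For Ifit1 the adjusted p ran from 0.00888 to 0.464 over the alternatives. Ifit1, which binds viral RNA that lacks cap methylation, had 339, 242 and 205 CPM in Mut, against 136, 176 and 160.5 CPM in WT. The groups were apart, but the Mut libraries differed among themselves by more than the gap (log2 0.72, SE 0.24, adjusted p = 0.244). Its neighbours on chromosome 19, Ifit2 and Ifit3, had log2 differences of 1.10 and 1.01 (adjusted p = 0.208 and 0.234). Ifit3 and Ifit3b, and likewise Oas1a and Oas1g, are near copies between which reads can be shared, so the split of their counts is uncertain. Rsad2, the gene of viperin, and Cmpk2, its neighbour on chromosome 12, had log2 differences of 0.82 and 0.96 (adjusted p = 0.191 and 0.139). The GTPases Mx1 and Mx2 had 0.88 and 0.82 (adjusted p = 0.245 and 0.152). The 2′-5′ oligoadenylate synthetase family, Oas1a, Oas1g, Oas2, Oas3, Oasl1 and Oasl2, ran from 0.35 to 0.58, with 0 of 6 called by edgeR (2 at an unadjusted p under 0.05) or limma-voom and 1, Oasl2, by DESeq2. The fit of all 18 libraries called Oas1a, Oas3 and Oasl2, and the fit without a low-count filter called Oas1a, Oas1g and Oas2. Trim30a, Xaf1 and Herc6 ran from 0.42 to 0.51.

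**Figure D2:**
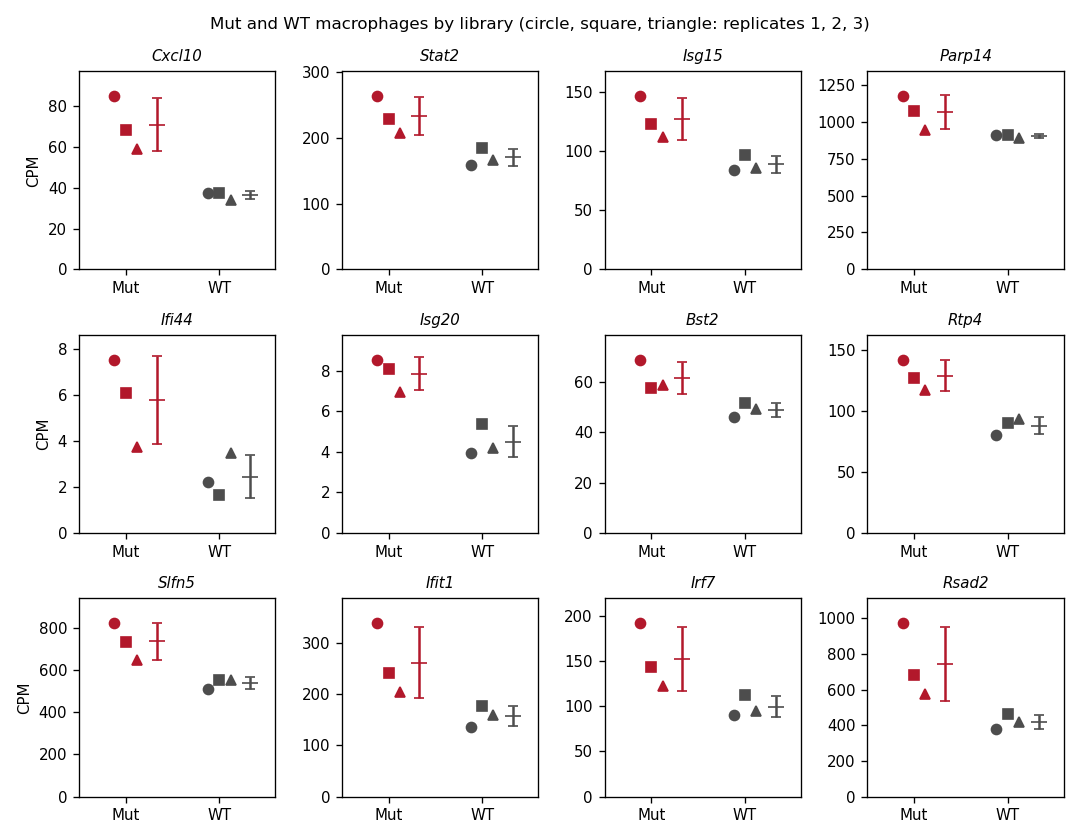
CPM in each Mut library (red) and each WT library (grey) for the 9 genes called higher in Mut, and for Ifit1, Irf7 and Rsad2, which did not pass. The bar beside each group is the mean ± SD of 3 libraries, and each axis starts at 0. The Mut libraries of Ifit1, Irf7 and Rsad2 are spread more widely than those of Bst2 or Rtp4, with replicate 1 highest.

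The 34 genes varied together between the libraries of a group. Replicate 1 was the highest Mut library for 33 of the 34 genes, against 32.7% of all genes tested, and replicate 3 was the lowest for 33. Among all 460 genes called higher in Mut, replicate 1 was the highest library for 56.5%. In WT, replicate 2 was the highest library for 31 of the 34 genes, against 30.6% of all genes. The summed counts of the 36 genes made up 0.769%, 0.612% and 0.532% of all counts in the Mut libraries, against 0.416%, 0.469% and 0.438% in the WT libraries. The level over the list, as the median ratio to the WT mean, was 1.80, 1.45 and 1.23 in the Mut libraries, against 0.935, 1.09 and 0.985 in the WT libraries. All Mut libraries thus lay above all WT libraries, and the Mut libraries were spread more widely than the WT libraries.

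**Figure D3:**
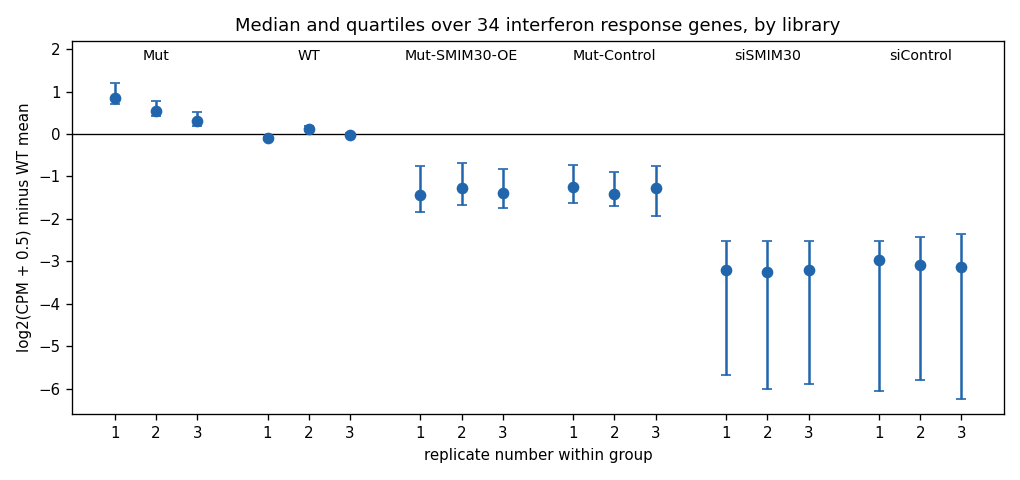
Median (point) and quartiles (bars) over 34 genes of log2(CPM + 0.5) minus the gene's mean in WT, for each of the 18 libraries. The Mut libraries sit at 0.30 to 0.85, above the highest WT library, the virus groups sit between -1.44 and -1.26, and the IC-21 groups between -3.26 and -2.97.

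Other measures also differed between Mut and WT, and their part in these results was not tested. Ribosomal RNA genes held 0.399 to 1.03% of counts in Mut and 1.74 to 2.49% in WT. Without those genes the same 9 genes were called. The summed macrophage markers were 9864 to 10370 CPM in Mut and 10946 to 11669 CPM in WT. Of these 7 markers, Lyz2 was lower (log2 -0.29), Fcgr1 (1.21) and Cd14 (0.38) were higher, and the median was -0.01. The 4 large peritoneal macrophage markers summed to 9.42 to 10.4 CPM in Mut and 11.5 to 14.9 CPM in WT, with 0 of 4 called by edgeR (1 at an unadjusted p under 0.05), all 4 log2 differences below 0 and a median of -0.46. The 5 markers of conventional dendritic cells summed to 9.06 to 14 CPM in Mut and 6.70 to 7.43 CPM in WT, with Flt3 and Xcr1 near 0, Batf3 called higher (log2 1.47, adjusted p = 7.03e-05) and Zbtb46 at a log2 difference of 0.02. Of the 5 markers of plasmacytoid dendritic cells, which secrete much interferon, Klk1 was at 0 in both groups, and the sum was 1.96 to 2.77 CPM in Mut and 1.34 to 2.23 CPM in WT. The 6 T and NK cell markers summed to at most 0.0817 CPM in Mut and 0.212 CPM in WT, with 5 of 6 at 0 in Mut and 4 of 6 at 0 in WT. The B cell markers summed to 3.18 to 4.78 CPM in Mut and 5.45 to 6.58 CPM in WT.

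Genes around the list moved in part. Of 37 further interferon-stimulated genes, 17 were called higher and 0 lower (33 at an unadjusted p under 0.05), with a median log2 difference of 0.39. Dtx3l and its partner Parp9, which act as a ubiquitin ligase and a macrodomain protein, were among them (1.39-fold, adjusted p = 2.10e-06, and 1.33-fold, adjusted p = 4.21e-04), as were Epsti1 and the helicase Mov10 (adjusted p = 3.75e-04 and 4.60e-04). Among the receptors and transducers, the kinase gene Jak2 (log2 0.26, adjusted p = 0.00161) and the receptor subunit gene Ifnar1 (log2 0.23, adjusted p = 0.00177) were higher. Of 14 genes that induce interferon downstream of LPS or nucleic acids, 4 were higher and 0 lower. They were the LPS co-receptor Cd14 (log2 0.38), Tlr4 (0.27), Irf5 (0.18) and Tmem173 (0.40), the gene of STING. Of 6 brakes on the pathway, the feedback inhibitors Socs3 (log2 0.57) and Socs1 (0.76) and the repressor Irf2 (0.24) were higher. Of the 6 tested genes with a strong interferon gamma response, 1 was higher, Cd274, the gene of PD-L1 (log2 0.49, adjusted p = 0.0201). Of 14 NF-kB-driven genes, 8 were higher, with a median log2 difference of 0.51, close to the 0.55 of the interferon response genes.

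The 7 ligands examined beyond interferon beta were nearly silent, and other interferon genes were not examined. Ifna1, Ifna2, Ifna4, Ifna5, Ifnl2 and Ifnl3 had 0 counts in all 18 libraries. Ifng, interferon gamma, had 3, 9 and 4 counts in the Mut libraries and 0 counts in each of the other 15. Against a floor of 3 counts over the WT group this is at least 5.32-fold higher in Mut, from 16 counts in all.

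With Smim30 overexpressed in mutant macrophages, Cxcl10 was the only gene of the list called, and it was lower. In Mut-SMIM30-OE against Mut-Control, 32 genes were tested, 1 was lower and 0 were higher, where 0.842% of all genes were called lower and 0.583% higher. At an unadjusted p under 0.05, 3 were lower (Cxcl10, Ifih1 and Oasl2) and 1 was higher (Slfn5). DESeq2 called 0 in either direction, and limma-voom called 1 lower and 0 higher. The median log2 difference was -0.01, with 14 genes above 0 and 18 below. An interval was taken as the log2 difference with 1.96 SE either side. For 28 of the 32 genes it lay within 0.5 of 0 (a 1.41-fold change in either direction). The 4 others were Cxcl10, Ifit3, Ifi44 and Isg20. Such an interval can be narrower than a 95% interval with so few libraries, so 28 may be too high a count.

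Cxcl10 had 12.6, 14.8 and 13.4 CPM in Mut-SMIM30-OE, against 21.9, 18.7 and 15.5 CPM in Mut-Control. The highest overexpression library lay just under the lowest control library (log2 -0.46, SE 0.11, adjusted p = 0.0122). The call was lost with DESeq2, in a fit of all 18 libraries, without Mut-Control replicate 1 or 2 and without Mut-SMIM30-OE replicate 1 or 3 (highest adjusted p = 0.509). Isg15 had 15.2, 18.8 and 15.7 CPM in Mut-SMIM30-OE, against 19.7, 18.6 and 16.5 CPM in Mut-Control, with overlap (interval of log2 -0.34 to 0.07). Ifit1 had 27.0, 28.1 and 29.0 CPM in Mut-SMIM30-OE, against 29.6, 24.7 and 27.3 CPM in Mut-Control, also with overlap (interval -0.11 to 0.20). Irf7 had 155, 169 and 168 CPM in Mut-SMIM30-OE, against 157, 163 and 153 CPM in Mut-Control (interval -0.01 to 0.14). The groups overlapped for Irf7 as well. Rtp4, Stat2 and Bst2 had log2 differences of -0.02, -0.05 and 0.06 (SE 0.07, 0.05 and 0.07).

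Around the list, 1 of 37 further interferon-stimulated genes was higher, Lgals9, the gene of galectin-9 (log2 0.20, adjusted p = 0.0232), and 1 of 14 induction genes was lower, the kinase gene Ikbke (log2 -0.16, adjusted p = 0.00217). All 14 NF-kB-driven genes had log2 differences below 0, with 0 called (7 at an unadjusted p under 0.05) and a median of -0.10. The fibroblast and mesothelial markers summed to 40.4 to 46.1 CPM in Mut-SMIM30-OE and 73.5 to 90.3 CPM in Mut-Control, with 6 of 6 tested markers lower. Their part in the Cxcl10 difference was not tested.

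In IC-21 cells, 19 of the genes could be tested, and knockdown of Smim30 left 18 of them without a call. In siSMIM30 against siControl, 1 gene was lower and 0 were higher, where 1.09% of all genes were called lower and 2.39% higher. At an unadjusted p under 0.05, 5 were lower (Stat2, Parp14, Oasl2, Trim30a and Herc6) and 0 higher. DESeq2 and limma-voom called 0 in either direction. The median log2 difference was -0.08, with 4 genes above 0 and 15 below. For 14 of the 19 genes the interval of 1.96 SE either side of the log2 difference lay within 0.5 of 0. The others were Dhx58, Oas1a, Oasl2, Rsad2 and Xaf1. Here too the count may be too high, as the interval can be narrower than a 95% interval.

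Parp14 had 87.5, 83.3 and 83.4 CPM in siSMIM30, against 101, 90.4 and 101 CPM in siControl. The groups did not overlap, with siControl replicate 2 close to siSMIM30 replicate 1 (log2 -0.18, SE 0.05, adjusted p = 0.0484). The call was lost in 8 of 15 alternatives, among them DESeq2, limma-voom and the removal of any siSMIM30 replicate (highest adjusted p = 0.234). Oasl2 had 3.34, 2.39 and 4.28 CPM in siSMIM30, against 5.54, 5.09 and 5.55 CPM in siControl, a wider difference that did not pass (log2 -0.68, SE 0.23, adjusted p = 0.0954). Stat2 had 29.4, 27.7 and 28.9 CPM in siSMIM30, against 35, 32.9 and 30.8 CPM in siControl (log2 -0.18, adjusted p = 0.332). Both genes were lower in each siSMIM30 library than in any siControl library.

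Cxcl10 in IC-21 cells had 43.3, 36.1 and 42.5 CPM in siSMIM30, against 48.1, 40.7 and 35.3 CPM in siControl. These overlapped fully, and the interval of the log2 difference was -0.17 to 0.17. Isg15 had 7.64, 8.19 and 9.76 CPM in siSMIM30, against 12, 9.92 and 7.41 CPM in siControl (interval -0.49 to 0.15). Ifit1 had 19.2, 18.3 and 15.4 CPM in siSMIM30, against 19.1, 18.3 and 19.6 CPM in siControl (interval -0.30 to 0.14). The groups overlapped for both genes.

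The NF-kB-driven genes moved in this comparison while the interferon response genes were not called higher. Of 11 tested, 7 were higher in siSMIM30, with a median log2 difference of 0.33. The chemokines Ccl4 and Ccl3 had the smallest adjusted p (450.5 ± 18.6 CPM in siSMIM30 and 354 ± 5.12 CPM in siControl, SD, n = 3 each, adjusted p = 1.41e-12, for Ccl4). Socs3, the brake on cytokine receptors, was also higher (1.44-fold, adjusted p = 9.53e-07), as was the interferon gamma receptor subunit Ifngr1 (1.18-fold, adjusted p = 0.0256). Of 32 further interferon-stimulated genes tested, 0 were called in either direction (3 at an unadjusted p under 0.05).

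**Figure D4:**
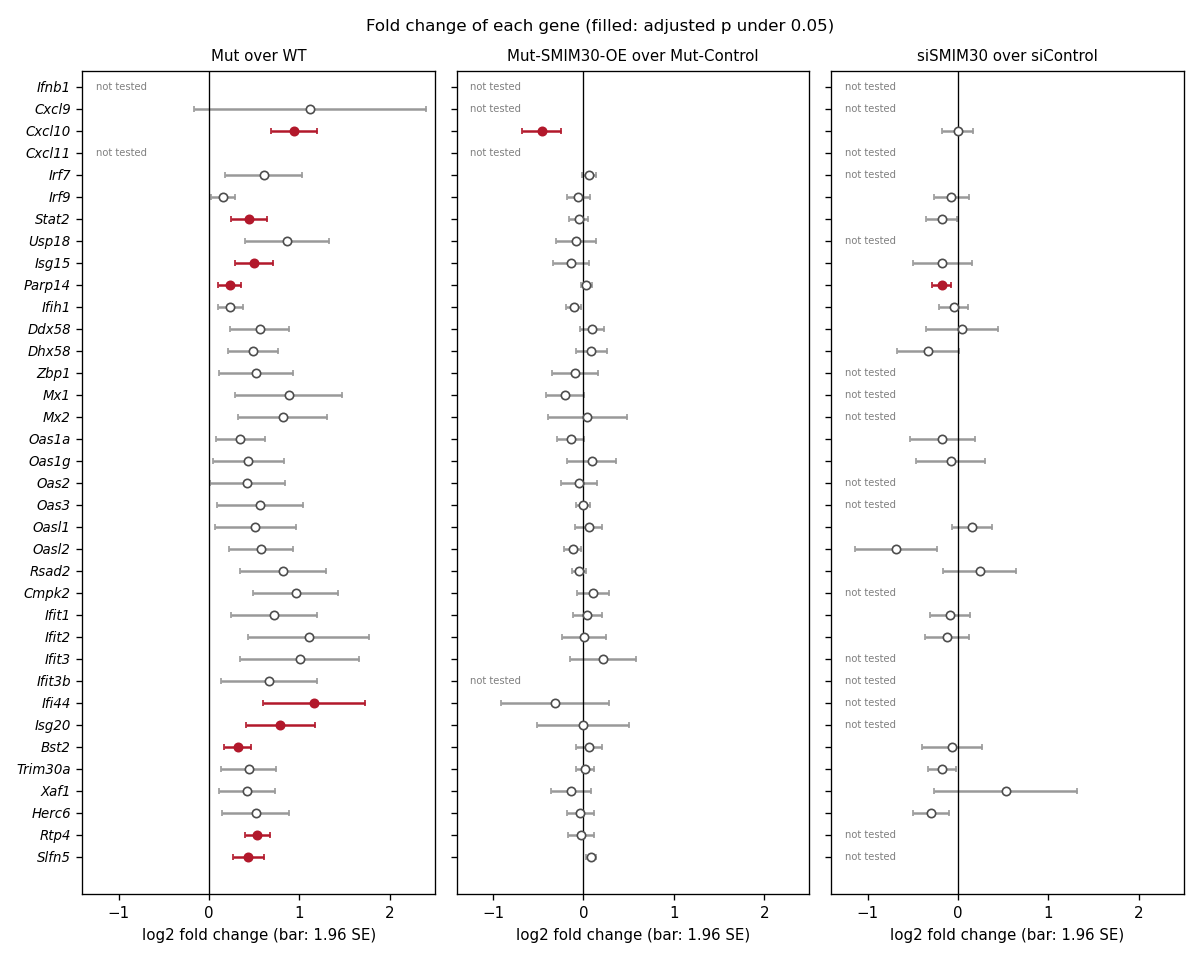
Log2 fold change of each gene (points, with bars of 1.96 SE) in Mut over WT, in Mut-SMIM30-OE over Mut-Control and in siSMIM30 over siControl. Filled points have an adjusted p under 0.05. In the first panel each tested gene lies to the right of 0, with wide bars for Cxcl9, Ifit2, Ifit3 and Mx1, and in the other panels most points lie near 0.

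**Figure D5:**
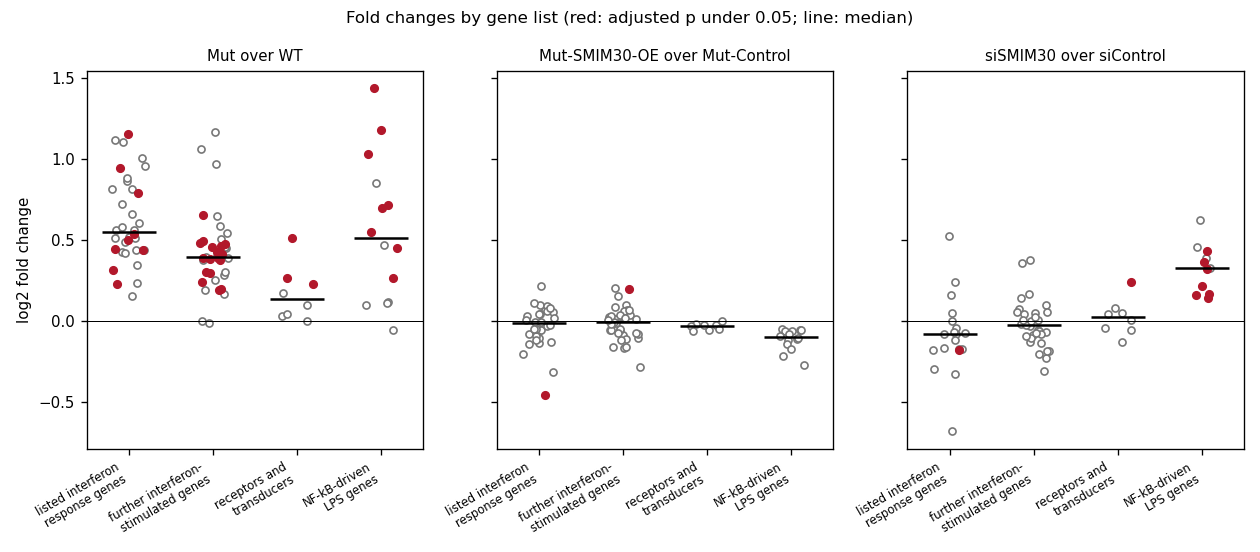
Log2 fold change of each tested gene (points) in the list of interferon response genes and in 3 lists around it, for the same comparisons, with red points for an adjusted p under 0.05 and a line at each median. The medians of the interferon response and NF-kB-driven lists are 0.55 and 0.51 in Mut over WT, and -0.08 and 0.33 in siSMIM30 over siControl.

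The difference between effects was tested directly, in fits of 12 libraries in which the effects compared share no library. Genes with few counts in IC-21 cells entered the first of these fits through the peritoneal libraries. Among them, Cxcl9, Mx1, Zbp1 and Ifi44 had an SE of 3513 to 7243, so their tests could call neither direction. Irf7, Ifit3, Usp18, Ifit3b, Oas3, Oas2, Mx2 and Cmpk2 had an SE of 1.49 to 3.28. For these genes a difference of the size called below could not have been called in either direction. Cxcl9 and an antiviral effector, untested within the virus pair, entered the second fit through the uninfected libraries. The mutation effect exceeded the siRNA effect for 4 of the 34 genes tested and fell below it for 0, where 1.25% of all genes were called higher and 1.26% lower. They were Cxcl10, Stat2, Parp14 and Dhx58, with log2 differences between effects of 0.94, 0.62, 0.41 and 0.81. All 4 were among the 19 genes that could be tested within IC-21 cells. Of 14 NF-kB-driven genes, 1 passed in this test, Ccl4 (log2 0.33, adjusted p = 0.0276), and the median difference of the 14 was 0.25. The mutation effect exceeded the overexpression effect for 5 of 34 genes and fell below it for 0, where 2.31% of all genes were called higher and 1.53% lower. They were Cxcl10, Stat2, Ifih1, Ifi44 and Rtp4, and the median log2 difference between effects over the 34 was 0.56. The difference is signed. For a gene higher in Mut it is positive whether overexpression left the gene unchanged or lowered it, and the test does not tell these apart. Of the 14 NF-kB-driven genes, 8 were called higher in this test and 0 lower, with a median of 0.68. Both counts moved with the libraries left out, from 1 to 8 and from 2 to 18.

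Across the 6 groups, Mut had the highest mean CPM of 33 of the 36 genes. The exceptions were Irf7, highest in Mut-SMIM30-OE, Ifnb1, highest in Mut-Control, and Cxcl11, highest in WT, the last 2 within a few counts of the floor. For most of the list the levels were highest in Mut and WT, lower in the virus groups and lowest in the IC-21 groups. Isg15 averaged 127 ± 17.9 CPM in Mut and 88.8 ± 7.06 CPM in WT (SD, n = 3 each, here and next). It averaged 16.6 ± 1.94 CPM in Mut-SMIM30-OE and 18.3 ± 1.62 CPM in Mut-Control, and 8.53 ± 1.10 CPM in siSMIM30 and 9.76 ± 2.28 CPM in siControl. The groups overlapped within the virus pair and within the IC-21 pair, and in no other pair. The summed counts of the 36 genes made up 0.207 to 0.217% of all counts in the virus groups and 0.0386 to 0.0437% in the IC-21 groups. Per kilobase of exon, Isg15 led the list in Mut and WT, Slfn5 in the virus groups and Cxcl10 in the IC-21 groups.

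The virus groups held less of nearly all of these RNAs than uninfected mutant cells. In Mut-Control against Mut, 32 of 34 tested genes were lower and 0 higher, where 26.5% of all genes were called lower and 27.1% higher. The median log2 difference was -1.93. DESeq2 and limma-voom gave the same counts of 32 and 0. This comparison shares the Mut libraries with that of Mut and WT. Virus, time in culture before LPS and the part of the experiment coincide and cannot be told apart. The largest falls were in Cxcl9 (log2 -4.47), Zbp1 (-3.56), Cmpk2 (-3.41), Ifit2 (-3.35), Ifit1 (-3.29) and Ifit3 (-3.01), with adjusted p of at most 0.00348. Within the virus groups, 32 genes of the list passed the low-count filter, among them 21 of the 22 antiviral effectors but not Cxcl9. Cxcl9 and the remaining effector entered through Mut, so their direction follows from the filter. Ifit1 had 29.6, 24.7 and 27.3 CPM in Mut-Control, against 339, 242 and 205 CPM in Mut, far apart.

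Irf7 and Oas3 were the exceptions. Irf7 had 157, 163 and 153 CPM in Mut-Control, against 192, 143 and 123 CPM in Mut, within the spread of the Mut libraries (log2 0.03, SE 0.19). Without Mut replicate 1 it was called higher in Mut-Control (adjusted p = 0.0017). Oas3 had 148, 142 and 146 CPM in Mut-Control, against 269, 185 and 158 CPM in Mut (log2 -0.51, adjusted p = 0.141). Ifnb1 reached its highest counts here, 7, 3 and 2 in Mut-Control, against 1, 0 and 0 in Mut, too few to test. Of the further interferon-stimulated genes, 33 of 37 were lower and 4 higher, the 4 being Ly6e, Ifi27l2a, Lgals3bp and Shisa5. Genes outside the interferon-stimulated lists were lower too. Of 14 NF-kB-driven genes, 10 were lower and 3 higher, with a median log2 difference of -1.41. Of 14 induction genes, 5 were lower and 6 higher, with Tlr4 (log2 0.75) and Irf5 (0.71) among the higher. Of 6 brakes, 4 were lower, led by Socs1 (log2 -3.32), and 2 higher. The receptor and kinase genes Ifnar1 (log2 -0.41), Ifnar2 (-0.57), Jak1 (-0.13) and Tyk2 (-0.51) were lower, as was Jak2, and the interferon gamma receptor genes Ifngr1 (1.32) and Ifngr2 (0.33) were higher. Fibroblast and mesothelial markers summed to 73.5 to 90.3 CPM in Mut-Control and 179 to 209 CPM in Mut, and their part in these differences was not tested.

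IC-21 cells had few or no counts for many genes of the list. In siControl, 6 genes had 0 counts in all 3 libraries (Cxcl9, Cxcl11, Usp18, Zbp1, Mx1 and Ifi44), and 11 had under 3 counts in each. In siSMIM30, 7 had 0 counts in all 3 and 11 had under 3 in each. Against a floor of 3 counts over the siControl group, Zbp1 was at least 849-fold lower in siControl than in WT, Mx1 at least 430-fold, Usp18 at least 233-fold, Ifi44 at least 23.3-fold and Cxcl9 at least 22.6-fold. Slfn5 had 0, 1 and 1 counts in siControl, against 507, 553 and 554 CPM in WT. Irf7 had 0.875, 0.417 and 0.231 CPM in siControl, against 90.2, 112 and 94.9 CPM in WT.

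In siControl against WT, 34 of 34 tested genes were lower, where 40.2% of all genes were called lower and 40.1% higher. Of these 34, 15 fell under the low-count filter within the IC-21 libraries and entered through WT, so their direction follows from the filter. Cell line, transfection and part of the experiment coincide and cannot be told apart, and the WT libraries are shared with the comparison of Mut and WT. Without a composition factor, the median of all genes stood at 0.72 (log2) against 0.01 with it, so the sizes depend on scaling. Not all genes were low in IC-21 cells. Cxcl10 had 48.1, 40.7 and 35.3 CPM in siControl, against 37.4, 37.6 and 34.1 CPM in WT. In CPM its siControl libraries overlapped those of WT and averaged higher, whereas relative to the composition-scaled library it was lower (log2 -0.53, SE 0.09), and the sign turned without that factor. Irf9, Stat2, Oasl1, Herc6 and Oas1g were between -3.08 and -1.70 on the composition-scaled log2 scale.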

How the data were processed

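Libraries were strand-specific, made from total RNA, per the labels' protocols. The submitters' processing notes name fastp, FastQC and HISAT2 before counting. What the authors deposited is a whole-number count of read pairs in the exons of each gene (featureCounts 2.0.3, reverse-strand setting, GENCODE M25 genes on GRCm38, per the file headers). The alignment number inside each header differs from the number in the name of its file, so the link of a count table to its library rests on the deposit's own record of each file. A table of mouse gene names matched 55141 of 55401 identifiers to symbols. Each comparison was fitted to its own 6 libraries (12 for differences between effects) with edgeR 4.0.16 in R 4.3.3: filterByExpr, TMM composition factors (trimmed mean of M-values), robust quasi-likelihood F test, and Benjamini-Hochberg adjustment over all genes tested at 0.05. The SE of a log2 fold change was its size divided by the square root of F, and intervals are 1.96 SE either side. With few libraries these can be narrower than 95% intervals. For Ifit1, mutation effect minus siRNA effect, the interval was wholly positive (0.05 to 1.54) at an unadjusted p of 0.0681 in edgeR's test. CPM used each library's own total. An exact permutation test of 3 against 3 cannot go below 0.1, so none was used. The fits were tested on simulated counts with known fold changes. Each gene was drawn on its own, so libraries that vary together over the list, as seen here, were not simulated. Alternatives were RLE scaling, no composition factor, no low-count filter, limma-voom (limma 3.58.1), DESeq2 1.42.0, a minimum of 1 CPM in 3 libraries, removal of ribosomal RNA genes, a replicate block, a fit of all 18 libraries and leaving out each library. Genes given in full were those called in Mut against WT or either other perturbation, plus Ifnb1, Isg15, Ifit1, Irf7, Stat2 and Cxcl10. For the further comparisons they were the 6 largest changes in each direction, for differences between effects each gene called, and of other lists up to 4 called genes. Cxcl9, the sensors, Oasl2, Oas3 and several others were added for their role after their values were seen. The genes and lists were chosen with earlier results of these data known. Results for 1 gene of the receptor and transducer list are not reported here.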

Additional observations from a re-analysis of the deposited data

Results flagged for a closer look

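For 7 genes a difference between effects passed its own test (edgeR quasi-likelihood test over all genes, Benjamini-Hochberg adjustment), with 3 libraries per group. Against the siRNA effect in IC-21 cells, the mutation effect was larger for Cxcl10 by 0.94 on the log2 scale (SE 0.19, adjusted p = 0.0241), for Stat2 by 0.62 (SE 0.12, adjusted p = 0.00451), for Parp14 by 0.41 (SE 0.08, adjusted p = 0.00175) and for Dhx58 by 0.81 (SE 0.21, adjusted p = 0.0327). Over 20 alternatives Parp14 kept its call in 19, Stat2 in 15 and Cxcl10 in 12, with adjusted p of up to 0.0991, 0.0994 and 0.104. Dhx58 lost its call with limma-voom, without WT replicate 1 and with any siSMIM30 replicate removed, among other settings.

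Against the overexpression effect in mutant macrophages, the mutation effect was larger for Cxcl10 by 1.40 (SE 0.21, adjusted p = 0.00219), for Stat2 by 0.50 (SE 0.12, adjusted p = 0.0443), for Ifih1 by 0.34 (SE 0.09, adjusted p = 0.0257), for Ifi44 by 1.48 (SE 0.42, adjusted p = 0.0371) and for Rtp4 by 0.56 (SE 0.10, adjusted p = 4.59e-04). Cxcl10 and Rtp4 kept their call in 20 of 20 alternatives, Stat2 in 10 and Ifi44 in 8. Ifih1 lost its call with limma-voom, without WT replicate 1 and without Mut-Control replicate 1 or 2, among other settings. As the difference is signed, it does not tell a gene that overexpression left unchanged from one that it lowered.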

How the results depend on the processing

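The count of genes called higher in Mut against WT, 9 as reported, was 20 with no low-count filter, 20 with DESeq2, 26 in the fit of all 18 libraries, and 3 to 21 with 1 library left out. Deviations from the group means of same-numbered libraries correlated at -0.14 to 0.088, and in no comparison was every pair above 0.1. Those of differently numbered libraries correlated at -0.152 to 0.112. With so few libraries, these values cannot settle whether the replicate numbers shared by the groups pair the libraries. With replicate number as a block, 14 were called higher in Mut, and no other such count of the 3 perturbations moved. Not every library correlated best with its own number. For Mut-SMIM30-OE against Mut-Control, the count lower was 0 with DESeq2, 0 in the 18-library fit and 0 to 1 with a library left out. For siSMIM30 against siControl it was 0 with DESeq2, 0 with limma-voom, 0 in the 18-library fit and 0 to 1 with a library left out. The mutation effect exceeded the siRNA effect for 8 genes with no low-count filter, 8 with DESeq2, 2 with limma-voom and 1 to 8 with a library left out. It exceeded the overexpression effect for 14, 11, 2 and 2 to 18 under the same settings. In Mut-Control against Mut, the count higher was 0 to 1 with a library left out. In siControl against WT, Cxcl10 turned to a log2 value of 0.18 without a composition factor, by construction of the scaling. The cause of the other changes was not tested. Counts under the floor in every library limit 11 genes in each IC-21 group, Ifnb1 and Cxcl11 among them, and 17 of the 36 could not be tested there.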
